A study of Mus musculus with 4 samples.

Results

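Kinesins, centromere proteins and the genes of the mitotic checkpoint were followed in Beko cells after a γ-secretase inhibitor was removed. Members were all genes of the count table whose symbol begins with Kif or Kifc and a digit or with Cenp and a letter, together with 20 genes named one by one: Aurka, Aurkb, Plk1, Bub1, Bub1b, Bub3, Ttk, Mad2l1, Cdc20, Ccnb1, Ccnb2, Ccna2, Cdk1, Birc5, Incenp, Cdca8, Ndc80, Nuf2, Spc24 and Spc25. This rule uses names and no measured value, but it was chosen with earlier results of these data known. It gave 83 of the 24391 genes: 44 with a kinesin symbol, 19 with a centromere protein (CENP) symbol and the 20 others. Beko is a mouse progenitor T-cell line in which Notch signaling is constantly on, and DAPT, a γ-secretase inhibitor (GSI), stops the cleavage that releases the active intracellular part of Notch. RNA-Seq was done on 4 libraries, 2 per group. In the GSI group, cells were kept with DAPT for 48 h. In the washout group, cells had the same 48 h with DAPT and were then washed and cultured without it for 24 h. Both groups are the same cell line and both had received the inhibitor, so that cells never exposed to DAPT are not part of the comparison. The labels give the dose as 10 mg/ml, whereas the unit in the published methods is μg/ml. Washed cells also spent longer in culture, and the effect of this cannot be told apart from that of the removal of DAPT.

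The libraries held 13716199 to 36364200 counted reads, and replicate 1 was the deeper one in both groups. Levels are given as CPM, which here means the count per 1000000 counted reads of the library after scaling with TMM factors (0.930 to 1.08), a normalization that assumes most genes do not change. A count of 3, taken as the limit of detection, corresponds to 0.0881 to 0.223 CPM and covers counting error only. Nothing in the labels says that the replicates are separate cultures, so p-values measure the spread between these libraries, which may be technical. All 15 T-cell progenitor markers that were looked up, such as Ptprc, Cd3e, Lck and Rag1, were detected. Of the B-cell markers, Pax5, Ms4a1 and Ebf1 were at 0 counts in every library, as were the myeloid markers Lyz2 and Elane. The summed level of 6 myeloid markers was 49.1 and 38.2 CPM with DAPT and 5.49 and 4.98 CPM after its removal, nearly all of it from the integrin Itgam, and 6 stroma and epithelium markers summed to 28.2 to 48.1 CPM, mostly from Pdgfrb, with the keratins Krt8 and Krt18 at 0. Whether these reads came from Beko cells or from other cells was not tested.

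Kinesins are motor proteins that walk along microtubules with energy from ATP. Some build and shorten the mitotic spindle or move chromosomes, and others carry vesicles, organelles and the building blocks of cilia in cells that do not divide. Chromosomes attach to the spindle at the centromere, where nucleosomes with the histone variant CENP-A carry a constitutive network of CENP proteins, and the outer kinetochore is built on that network and binds microtubules. The spindle checkpoint holds cells in metaphase until every kinetochore is attached, while Aurora kinases, Plk1 and the cyclin-dependent kinase Cdk1 drive entry into mitosis. Most mitotic genes are transcribed mainly in the late phases of the cell cycle, so that their RNA in a bulk sample depends on how many cells are in those phases.

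Upon washout, mitotic genes rose together while several kinesins outside mitosis fell. For the description, members were put into groups by known role, also with earlier results of these data known. These were inner centromere, outer kinetochore, spindle checkpoint, chromosomal passenger complex, mitotic kinases and cyclins, mitotic kinesins and 2 other CENP-named genes. All remaining Kif symbols are called the other kinesins. Differences between washout and GSI were tested with edgeR's quasi-likelihood method over the 12266 genes that passed a filter on low counts, and p-values were adjusted over all of them by the Benjamini-Hochberg method. This filter was passed by 70 of the 83 members. At an adjusted p under 0.05, 47 of the 70 were higher and 8 were lower, where 27.0% of all genes tested were higher and 25.4% were lower. A second rule also asked for a log2 fold change above 1 or below -1. It was met by 10 members in the upward direction (Cenph, Cenpm, Cenpw, Spc24, Cenpk, Mad2l1, Cenpi, Bub1b, Kif15 and Ccna2) and by 4 in the downward direction (Kifc2, Kif9, Kif21b and Kif1b), where 7.74% and 11.7% of all genes tested met it. The median log2 fold change of the 70 members was 0.63, against -0.01 over all genes tested. Scaling of counts to the library total in place of TMM factors lowered the log2 fold change of all genes by a median of 0.20. It gave 586 higher and 1963 lower genes past both thresholds over all 12266 tested. Of the members, 4 were then higher and 5 lower past both thresholds. Without washout replicate 1 these numbers were 6 and 2, and without GSI replicate 1 they were 8 and 2.

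All members that rose lay outside the other kinesins. Of the 54 tested members without these, 47 were higher (87.0%) and 0 were lower, also with DESeq2, and 0 were lower at an unadjusted p under 0.05. The libraries of the groups did not overlap, with washout higher, for 51 of these 54 members, compared with 38.2% of all genes tested. Taken as a sum, the 83 members held 0.592% and 0.611% of the counted reads in GSI and 0.776% and 0.765% upon washout. In bulk RNA, a larger share of cells in G2 or mitosis and more RNA per cell cannot be told apart. Under total-count scaling 36 of the 47 were still higher. With GSI replicate 1 left out, 35 of the 47 were still higher, and these same 35 members were higher under every alternative run.

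**Figure D1:**
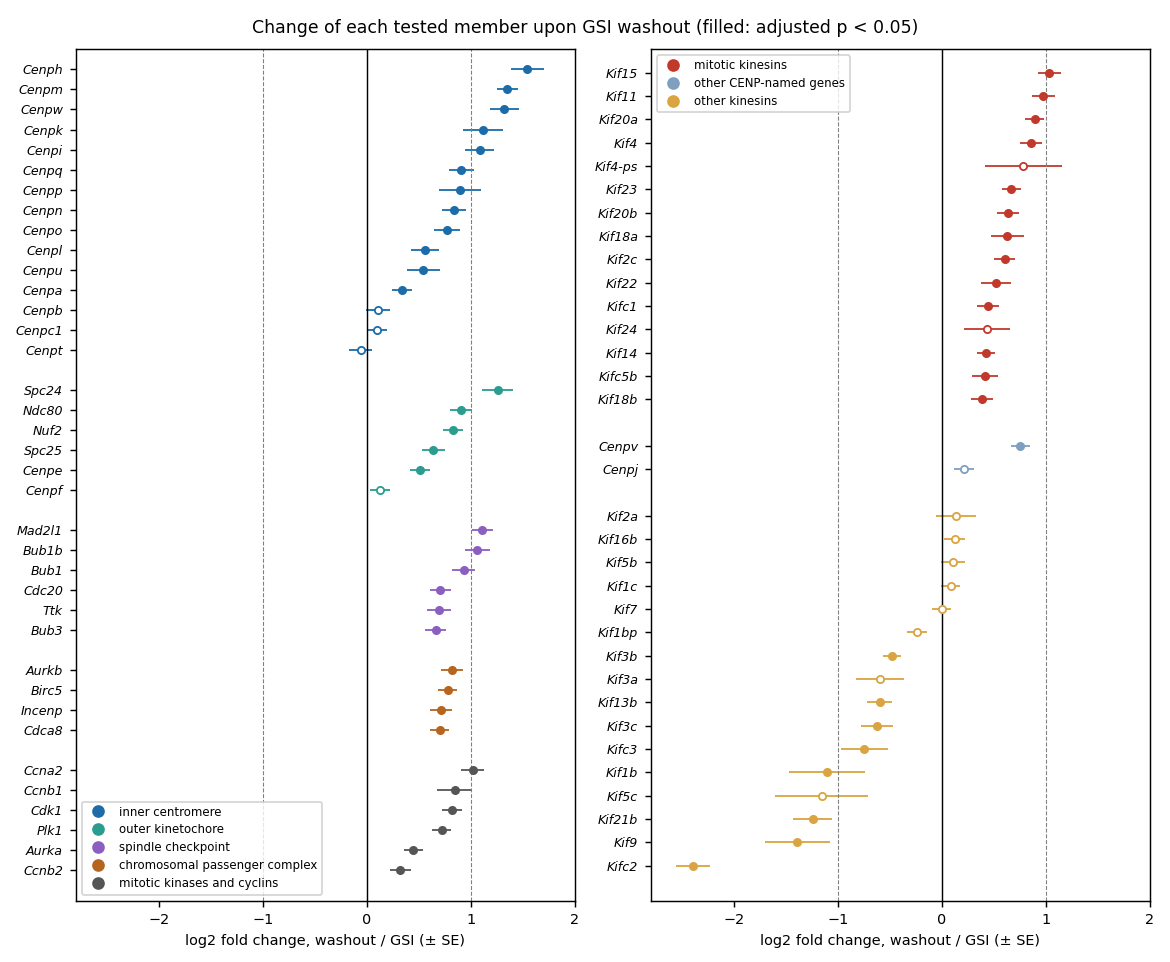
Log2 fold change of washout over GSI with its standard error for each of the 70 tested members, grouped by role, with filled points at an adjusted p under 0.05 and dashed lines at -1 and 1. Mitotic groups lie to the right of 0 with medians from 0.63 to 0.84, while the other kinesins range from -2.39 (Kifc2) to 0.14 (Kif2a).

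**Figure D2:**
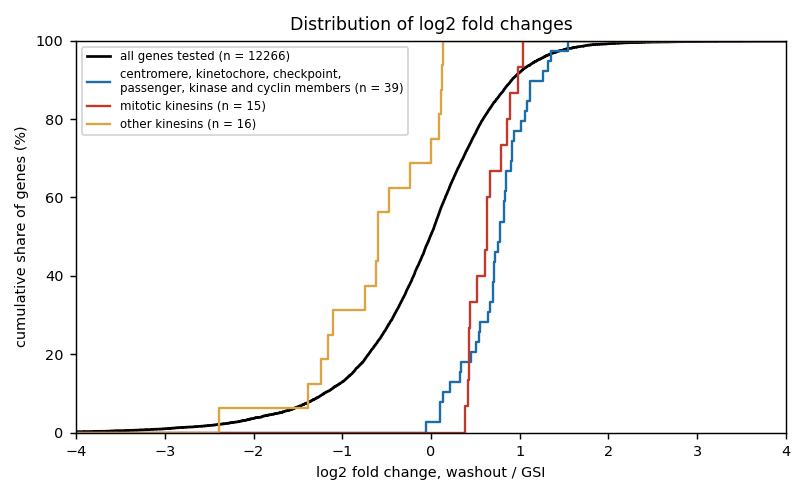
Cumulative share of genes (y axis, percent) by log2 fold change of washout over GSI (x axis) for all 12266 genes tested, the 15 mitotic kinesins, the 16 other kinesins and the remaining 39 members. Curves of the mitotic kinesins and of the 39 members lie to the right of the curve of all genes up to about a log2 fold change of 1, with medians of 0.63 and 0.77, and the curve of the other kinesins lies to its left over most of its range, with a median of -0.60.

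Promoters of mitotic genes are known for short shared elements, above all the CHR (cell cycle genes homology region), spelled TTTGAA here or, in a variant, TTCGAA, close to the start of transcription and CCAAT boxes upstream of it. Promoters from RefSeq (GRCm38.p6) could be matched to 70 of the 83 members, with 77 start sites among them, and the 250 bases before each start were searched on both strands. A CHR lay in 24.7% of the members' windows and in 17.1% of all RefSeq windows, and a CCAAT box in 57.1% and 33.8%. With the CHR required to begin within 30 bases of the start, a distance chosen after the hits had been seen, it was in 9 of 77 windows of members (11.7%) and in 1.54% of all windows. Among these were 8 of 51 windows (15.7%) of tested members outside the other kinesins and 1 of 25 (4.0%) of the other kinesins. An E2F element, spelled TTTCCCGC, TTTCGCGC, TTTGGCGC or TTTGCCGC, was in 7.79% of the members' windows and 1.86% of all windows, whereas the RBPJ letters TGGGAA were in 20.8% and 21.6%. These are matches of letters, not measured binding. The 60 bases before the start are shown for the 8 tested members outside the other kinesins with such a CHR, because here the shared elements can be seen, and for Cenpm a stretch further upstream in which a CHR lies beside an E2F element. Each is written 5′ to 3′ on the strand of the gene, with the letters of CHR, CCAAT and E2F elements in capitals, also where they lie on the opposite strand and the CHR therefore reads TTCAAA, the CCAAT box reads ATTGG and an E2F element reads, for example, GCGCCAAA.
Cdc20 (chr4:118437344-118437403, minus strand): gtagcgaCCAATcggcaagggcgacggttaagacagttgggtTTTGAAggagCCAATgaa
Cdk1 (chr10:69352913-69352972, minus strand): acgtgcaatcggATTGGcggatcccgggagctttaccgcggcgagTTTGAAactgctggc
Kif11 (chr19:37376322-37376381, plus strand): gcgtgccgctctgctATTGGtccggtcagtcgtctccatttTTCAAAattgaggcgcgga
Kif15 (chr9:122951021-122951080, plus strand): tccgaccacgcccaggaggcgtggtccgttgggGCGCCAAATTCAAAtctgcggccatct
Kif22 (chr7:127042421-127042480, minus strand): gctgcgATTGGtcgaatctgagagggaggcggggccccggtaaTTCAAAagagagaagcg
Kif24 (chr4:41464849-41464908, minus strand): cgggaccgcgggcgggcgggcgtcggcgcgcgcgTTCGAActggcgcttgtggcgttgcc
Cenpn (chr8:116921680-116921739, plus strand): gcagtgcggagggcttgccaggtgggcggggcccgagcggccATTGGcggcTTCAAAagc
Cenpw (chr10:30200541-30200600, minus strand): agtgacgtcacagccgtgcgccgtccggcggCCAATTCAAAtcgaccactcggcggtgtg
Cenpm (chr15:82244375-82244434, minus strand): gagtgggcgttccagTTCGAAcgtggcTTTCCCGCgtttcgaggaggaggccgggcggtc
In Cenpw the CCAAT box and the CHR share a base, and in Kif15 an E2F element runs directly into the CHR. Among tested members outside the other kinesins, the median log2 fold change was 0.71 in 15 with a CHR anywhere in the window and 0.70 in 33 without. Medians with and without a CCAAT box were 0.67 (31 members) and 0.77 (17), and with and without an E2F element 0.72 (6) and 0.70 (42). For the RBPJ letters they were 0.54 (10) and 0.73 (38). These differences were not tested.

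Genes of the inner centromere held the largest rises among the members. Of the 15 genes, 12 were higher, compared with 27.0% of all genes tested, and the median was 0.84. Past a log2 fold change of 1 as well were 5 of these, compared with 7.74% of all genes tested. Division by subcomplex follows textbook knowledge and was made after the values were seen. By this division the CENP-HIKM complex (Cenph, Cenpi, Cenpk and Cenpm) held 4 of these 5 genes. Cenph (chromosome 13, 101529629 to 101545854 in mm9) had 13.2 and 10.8 CPM under GSI and 38.4 and 32.1 CPM after washout. Both washout libraries lay well above the GSI libraries, and the log2 fold change of 1.54 (SE 0.158, adjusted p = 0.000731) was the highest of any member. Cenpm (chromosome 15, 82064209 to 82075177) had 25.2 and 27.1 CPM under GSI and 65.8 and 67.5 CPM after washout, a rise of 1.35 on the log2 scale. Cenpi, on chromosome X, had 24.3 and 28.0 CPM under GSI and 60.3 and 50.1 CPM after washout. Cenpk had 16.6 and 16.0 CPM under GSI and 41.6 and 28.7 CPM after washout. In these genes too the groups did not overlap, with log2 fold changes of 1.09 for Cenpi and 1.12 for Cenpk. Values of the latter genes sat close to the threshold and fell to 0.95 and 0.82 without washout replicate 1, and that of Cenpi to 0.98 without GSI replicate 1, all still with an adjusted p under 0.05.

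Among genes with a CENP symbol, medians of the remaining subcomplexes were lower than that of CENP-HIKM (1.24), from 0.63 for CENP-TW to 0.84 for CENP-OPQU. Subunits with other symbols, Apitd1 (1.60), Stra13 (0.72) and Itgb3bp (0.15), were counted with the lists outside the members. Cenpw, which encodes a small histone-fold protein, had 9.43 and 10.8 CPM under GSI and 24.4 and 26.0 CPM after washout and rose by 1.32 (SE 0.140, adjusted p = 0.000802). Its partner in the complex, Cenpt, had 31.5 and 33.6 CPM under GSI and 30.1 and 32.5 CPM after washout, so that the groups overlapped, and the log2 fold change was -0.06 (SE 0.110, adjusted p = 0.676). Exons of Cenpt overlap Tsnaxip1 on the other strand, and whether counting used the strand is not stated. Among the CENP-LN and CENP-OPQU genes, log2 fold changes ran from 0.54 for Cenpu to 0.91 for Cenpq, and all 6 were higher. For Cenpl and Cenpu this call was lost without GSI replicate 1 (adjusted p = 0.103 and 0.0717) and without washout replicate 1 (0.0577 and 0.130), and for Cenpu also without GSI replicate 2 (0.108). Cenpo and Cenpq overlap genes on the other strand.

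At the base of the network the levels moved little. Cenpa, the gene of the centromeric histone variant itself, had 79.2 and 72.5 CPM under GSI and 93.5 and 98.8 CPM after washout. The washout libraries were higher by 0.34 on the log2 scale (SE 0.0960, adjusted p = 0.0260), a call that was lost without GSI replicate 1 (adjusted p = 0.0749), GSI replicate 2 (0.163) or washout replicate 2 (0.0603) and under total-count scaling, where the log2 fold change was 0.14. Cenpc1, the scaffold that binds CENP-A nucleosomes, had 62.2 and 63.1 CPM under GSI and 66.9 and 67.7 CPM after washout, and its log2 fold change was 0.10 (adjusted p = 0.362). Cenpb, which binds a DNA box in centromeric repeats, had 104 and 86.3 CPM under GSI and 105 and 99.8 CPM after washout, with overlapping libraries and a log2 fold change of 0.11. Under total-count scaling the sign of both turned, to -0.10 for Cenpc1 and -0.09 for Cenpb. When GC content and exon length were corrected for, Cenpb was at 0.47 (adjusted p = 0.0147). Exons of Cenpb overlap Spef1 on the same strand, so strand cannot separate the reads of the shared bases. Under CENP symbols there were also 2 genes outside the inner centromere and outer kinetochore lists. Cenpv, on chromosome 11, had 42.6 and 40.2 CPM under GSI and 69.6 and 70.3 CPM after washout and rose by 0.75. Cenpj, a gene for centriole assembly, had 36.0 and 37.5 CPM under GSI and 43.0 and 42.1 CPM after washout, a log2 fold change of 0.21 (adjusted p = 0.115).

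**Figure D3:**
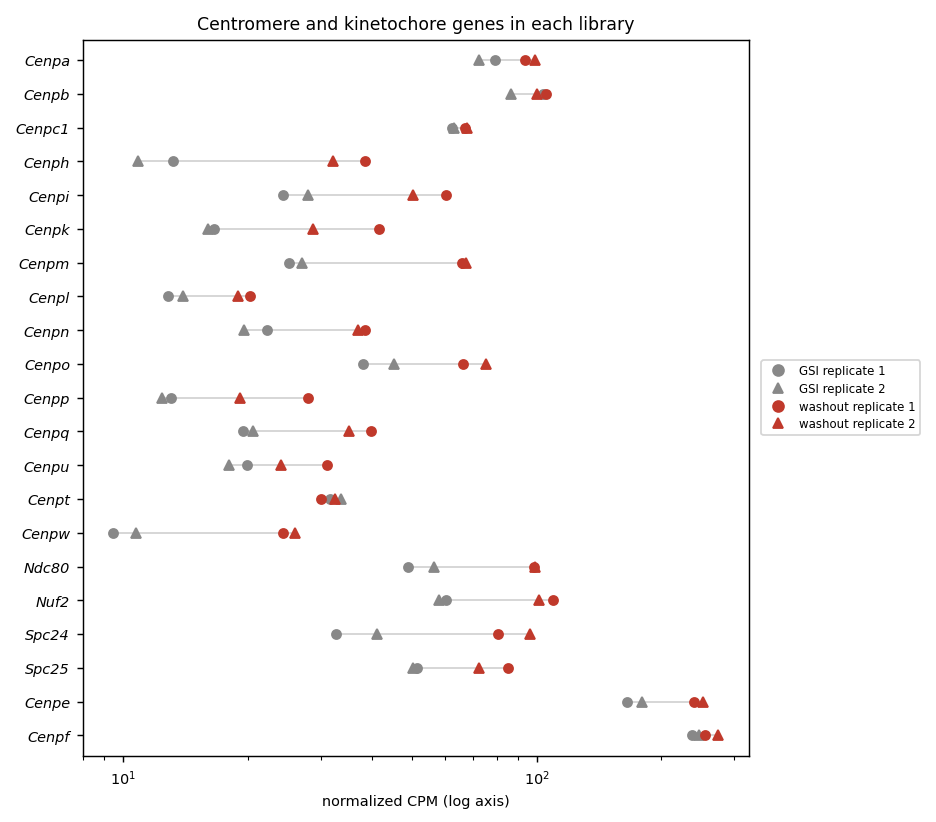
Level of 21 centromere and kinetochore genes in each library as normalized CPM on a log axis, with GSI libraries in grey and washout libraries in red, circles for replicate 1 and triangles for replicate 2. Groups lie farthest apart for Cenph, Cenpm and Cenpw, whereas the libraries of Cenpb and Cenpt overlap.

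In the outer kinetochore, 5 of 6 genes were higher, compared with 27.0% of all genes tested, and the median log2 fold change was 0.74. The NDC80 complex, which grips the microtubule, is made of the products of Ndc80, Nuf2, Spc24 and Spc25. Spc24 (chromosome 9, 21559886 to 21564733) had 32.7 and 41.0 CPM under GSI and 80.4 and 96.0 CPM after washout, a log2 fold change of 1.26 (SE 0.148, adjusted p = 0.00109). Ndc80 had 48.7 and 56.4 CPM under GSI and 98.1 and 98.7 CPM after washout. Nuf2 had 60.2 and 58.0 CPM under GSI and 109 and 101 CPM after washout. Neither of the latter had a GSI library above a washout library. Spc25 had 51.2 and 50.1 CPM under GSI and 85.1 and 72.5 CPM after washout. All 4 subunits were higher without overlap between the groups, by 0.91 for Ndc80, 0.83 for Nuf2 and 0.64 for Spc25. Washout was higher without overlap for 38.2% of all genes tested. The large fibrous proteins of the corona behaved less uniformly. Cenpe, a kinesin that carries chromosomes to the spindle equator, had 165 and 179.6 CPM under GSI and 240.0 and 251 CPM after washout and rose by 0.51, a call that was lost without GSI replicate 1 (adjusted p = 0.0656). Cenpf had 237 and 247 CPM under GSI and 255 and 275 CPM after washout. Its washout libraries were just above the GSI libraries, and the log2 fold change of 0.13 (SE 0.0987, adjusted p = 0.310) did not pass the test. Cenpf was at -0.07 under total-count scaling and at 0.29 (adjusted p = 0.0452) with GC content and length corrected for.

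All 6 genes of the spindle checkpoint were higher upon washout, compared with 27.0% of all genes tested. Their median log2 fold change was 0.82. Mad2l1, whose product is loaded onto Cdc20 at unattached kinetochores, had 48.0 and 54.5 CPM under GSI and 112 and 109 CPM after washout, a rise of 1.11 (SE 0.102, adjusted p = 0.000559). Bub1b, the gene of the checkpoint protein BubR1, had 225 and 259.7 CPM under GSI and 482 and 531 CPM after washout and rose by 1.07, or by 0.96 without GSI replicate 1. Bub1, a kinase that recruits other checkpoint proteins, had 87.6 and 97.3 CPM under GSI and 187 and 166 CPM after washout and rose by 0.93. Smaller rises belonged to the target of the checkpoint and to the most upstream kinase. Cdc20, the activator of the anaphase-promoting complex, had 131 and 120.2 CPM under GSI and 198 and 213 CPM after washout, a log2 fold change of 0.71. Ttk, the kinase Mps1, had 34.4 and 40.3 CPM under GSI and 59.6 and 61.1 CPM after washout (0.70), and Bub3, which binds Bub1 and BubR1, had 151 and 165 CPM under GSI and 243 and 258 CPM after washout (0.67, SE 0.100). In each of the 6 genes both washout libraries lay above both GSI libraries, compared with 38.2% of all genes tested. Exons of Cdc20 overlap Elovl1 on the other strand.

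The 4 genes of the chromosomal passenger complex moved almost in step. This complex of the kinase Aurora B with 3 other subunits corrects faulty attachments and later directs cytokinesis. Aurkb had 94.3 and 106 CPM under GSI and 169.5 and 183 CPM after washout. Birc5, which encodes survivin, had 103 and 104 CPM under GSI and 175 and 179.9 CPM after washout. Incenp, the scaffold, had 139 and 154 CPM under GSI and 249 and 232 CPM after washout. In each, washout libraries were above GSI libraries, compared with 38.2% of all genes tested. Cdca8, which encodes borealin, had 69.5 and 72.2 CPM under GSI and 114 and 117 CPM after washout. Exons of Cdca8 overlap 9930104L06Rik on the other strand. The log2 fold changes lay between 0.70 (Cdca8) and 0.82 (Aurkb), with standard errors of 0.0884 and 0.104 and adjusted p-values of 0.00137 and 0.00139, and no library of one group reached the range of the other.

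The kinases and cyclins that drive mitosis were all higher, compared with 27.0% of all genes tested, but to different extents. Ccna2, the cyclin A gene active from S phase on, had 235 and 233 CPM under GSI and 506 and 444 CPM after washout, a log2 fold change of 1.02 (SE 0.111), or 0.93 without washout replicate 1. Cdk1 (chromosome 10, 68799383 to 68815686) had 149.6 and 158 CPM under GSI and 275 and 268 CPM after washout and rose by 0.82. Ccnb1 and Ccnb2 encode the B cyclins that bind Cdk1. Ccnb1 had 78.7 and 62.7 CPM under GSI and 145 and 109.6 CPM after washout and rose by 0.84 (SE 0.170, adjusted p = 0.00765). Ccnb2 had 158 and 141 CPM under GSI and 180.1 and 195 CPM after washout, which is a rise of 0.32 (SE 0.105, adjusted p = 0.0405). The rise of Ccnb2 was the smallest of the 6 and was not called without GSI replicate 1 (adjusted p = 0.0828), GSI replicate 2 (0.233) or washout replicate 2 (0.0978). Plk1, which acts at centrosomes and kinetochores, had 67.5 and 70.2 CPM under GSI and 110.5 and 116 CPM after washout (0.72). Aurka, the kinase of the spindle poles, had 80.8 and 85.3 CPM under GSI and 110.0 and 117 CPM after washout and rose by 0.45 (adjusted p = 0.00817, or 0.0721 without GSI replicate 1). With total-count scaling the log2 fold changes of Aurka and Ccnb2 were 0.25 and 0.12, and neither was called. Exons of Ccna2 overlap Exosc9 on the other strand.

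Of the 15 tested members listed as mitotic kinesins, 13 were higher, compared with 27.0% of all genes tested, and the median was 0.63. The 2 not called were Kif24, a kinesin of centrioles, and the processed copy Kif4-ps. Kif15 and Kif11 cooperate in pushing the spindle poles apart, and they rose most. Kif15 (chromosome 9, 122860199 to 122927843) had 151 and 161 CPM under GSI and 340.4 and 299 CPM after washout, a log2 fold change of 1.03 (SE 0.110, adjusted p = 0.000812), which was 0.98 without GSI replicate 1 and 0.94 without washout replicate 1. Kif11, the target of several antimitotic compounds, had 249.9 and 261 CPM under GSI and 527 and 479 CPM after washout and rose by 0.98. Kif20a and Kif23 act in cytokinesis. Kif20a had 125 and 132 CPM under GSI and 239 and 238 CPM after washout and rose by 0.89. Kif23 had 86.2 and 89.1 CPM under GSI and 143 and 136 CPM after washout and rose by 0.67. Exons of Kif20a overlap Cdc23 on the other strand. The chromokinesin Kif4 had 105 and 120.4 CPM under GSI and 200.0 and 209 CPM after washout (0.86). Few reads were assigned to its processed copy Kif4-ps (18 and 8 counts under GSI and 31 and 14 after washout), for which the log2 fold change was 0.78 (adjusted p = 0.124), and reads of the copies cannot be separated with certainty.

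Among the other mitotic kinesins, log2 fold changes were 0.64 for Kif20b, 0.63 for Kif18a, 0.52 for Kif22 and 0.42 for Kif14. Exons of Kif18a overlap Mettl15 on the other strand. Kif2c, a microtubule depolymerase at centromeres, had 88.8 and 88.4 CPM under GSI and 126 and 143 CPM after washout and rose by 0.60 (SE 0.101). Kifc1, the minus-end-directed motor that focuses spindle poles, had 67.3 and 75.4 CPM under GSI and 91.8 and 102 CPM after washout and rose by 0.44 (adjusted p = 0.0152). Its copy Kifc5b had 43.0 and 51.0 CPM under GSI and 58.5 and 66.7 CPM after washout (0.41). Longest coding transcripts of Kifc1 and Kifc5b are identical at 98.3% of 2306 aligned bases, and each read was given a single alignment, so the split of reads between them is uncertain. Kif18b had the smallest change of the mitotic kinesins, with 82.9 and 94.4 CPM under GSI and 113 and 119 CPM after washout and a log2 fold change of 0.39. For Kif24 the replicates differed, with 25.3 and 37.5 CPM under GSI and 36.7 and 47.9 CPM after washout. Libraries of Kif24 overlapped between the groups, and its log2 fold change of 0.43 (SE 0.218, adjusted p = 0.141) did not pass the test. This value rested on single libraries: it was 0.16 without GSI replicate 1 and 0.25 without washout replicate 2, but 0.74 without GSI replicate 2 (adjusted p = 0.0260) and 0.63 without washout replicate 1 (0.0297). Kif24 was also called with GC content and length corrected for (0.63, adjusted p = 0.0379) and with a filter of 1 count per gene (0.00214). Without GSI replicate 1, 7 of the mitotic kinesins were called in place of 13, and Kif14, Kif18a, Kif18b, Kif22, Kifc1 and Kifc5b were those that dropped out, with adjusted p-values from 0.0542 (Kif18a) to 0.208 (Kifc5b). Under total-count scaling these same 6 genes dropped out. Kif2b was at 0 counts in every library.

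In contrast to the mitotic motors, the other kinesins fell or did not pass the test. This group is every Kif symbol not listed as mitotic, and it therefore also holds Kif2a, which has a role in mitosis too, Kif1bp, which is not a motor, and the antisense transcript Kif16bos. Of the 28 members, 16 were tested, 8 of these were lower (50.0%, where 25.4% of all genes tested were lower) and 0 were higher, also with DESeq2 and at an unadjusted p under 0.05. Their median log2 fold change was -0.60. When GC content and length were corrected for, this median became -0.37, and Kif1c (0.47, adjusted p = 0.00206) and Kif7 (0.40, 0.00423) were then higher. Kifc2 (chromosome 15, 76490996 to 76498625), a minus-end-directed motor known from neurons, had 21.0 and 19.7 CPM under GSI and 3.88 and 3.87 CPM after washout. No tested member changed more than Kifc2, whose washout level was 0.190 times the GSI level, with a log2 fold change of -2.39 (SE 0.160, adjusted p = 0.000334). Kif21b, a motor that regulates microtubule growth and is found in lymphocytes and neurons, had 254 and 278 CPM under GSI and 91.2 and 134 CPM after washout. Both washout libraries were well below the GSI libraries, and Kif21b fell by 1.24 on the log2 scale (SE 0.187, adjusted p = 0.00256). When GC content and length were corrected for, Kif21b was at -0.65 (adjusted p = 0.0105), and without washout replicate 1 it was -0.98.

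Falls of the remaining other kinesins were smaller or less certain. Kif9, a kinesin of motile cilia, had 130 and 47 counts under GSI and 42 and 22 after washout, a log2 fold change of -1.39 (adjusted p = 0.0111), and was not called without GSI replicate 1 (adjusted p = 0.0750) or washout replicate 1 (0.0631). Kif1b, a carrier of mitochondria and vesicles, had 35.1 and 22.5 CPM under GSI and 17.9 and 8.26 CPM after washout. Replicates of Kif1b lay far apart in both groups, and the log2 fold change of -1.10 (SE 0.366, adjusted p = 0.0441) was -0.75 without GSI replicate 1 (adjusted p = 0.179), -1.81 without washout replicate 1 and -0.69 without washout replicate 2. The genes with a Kif3 symbol moved the same way. Kif3a had 33.0 and 27.3 CPM under GSI and 24.3 and 15.1 CPM after washout. Kif3b had 80.1 and 81.9 CPM under GSI and 57.4 and 59.0 CPM after washout. Kif3c had 61.3 and 73.8 CPM under GSI and 38.7 and 49.4 CPM after washout. In all of these genes both washout libraries were below both GSI libraries, compared with 39.1% of all genes tested. Kif3b (-0.48, adjusted p = 0.00555) and Kif3c (-0.62, 0.0165) were lower, and Kif3a (-0.60, 0.0702) did not pass the test. Kif3a was called lower with DESeq2 (adjusted p = 0.0369), under total-count scaling (0.0299), with GC content and length corrected for (0.0348) and without washout replicate 1 (0.00176), whereas without washout replicate 2 its log2 fold change was -0.30. Kif3a and Kif3c overlap genes on the other strand. Without GSI replicate 2 the call of Kif3c was lost (adjusted p = 0.0808). Kif13b, which carries membrane proteins, had 94.7 and 109 CPM under GSI and 62.0 and 72.4 CPM after washout and fell by 0.60 on the log2 scale (adjusted p = 0.00765). Kifc3 had 13.2 and 16.9 CPM under GSI and 7.52 and 10.6 CPM after washout, a log2 fold change of -0.75 (adjusted p = 0.0332) that was not called without GSI replicate 2 (0.153) or washout replicate 1 (0.123). With GC content and length corrected for, neither Kifc3 (-0.38, adjusted p = 0.141) nor Kif1b (-0.75, 0.106) was called.

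The general cargo motor Kif5b had 269.9 and 279 CPM under GSI and 318 and 273 CPM after washout. Its groups overlapped, with a log2 fold change of 0.11 (SE 0.113, adjusted p = 0.460). Kif7, a regulator of Hedgehog signaling, had 71.8 and 71.6 CPM under GSI and 69.9 and 73.4 CPM after washout, a log2 fold change of 0.00 (SE 0.0892), and its exons overlap genes on the other strand. Kif2a, a depolymerase used in mitosis and in neurons, has exons that overlap Dimt1 on the other strand. It had 28.8 and 28.7 CPM under GSI and 37.5 and 25.1 CPM after washout. Its value of 0.14 was the highest of the other kinesins but turned to -0.19 without washout replicate 1, and without washout replicate 2 it was 0.40 (adjusted p = 0.0349). Kif1c and Kif16b had log2 fold changes of 0.08 and 0.12 and did not pass the test, nor did Kif5c (23 and 9 counts under GSI and 9 and 5 after washout). Kif1bp, which is named after the kinesin it binds and is not a motor, had a log2 fold change of -0.24 (adjusted p = 0.0742).

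Besides Kif2b, 12 members were too low to be tested. Kif6, Kif12 and Kif26a were at 0 counts in all libraries, and Kif1a, Kif13a, Kif21a and Kif27 had at most 3 counts in any of them. Kif17 had 15 and 5 counts under GSI and 3 and 1 after washout. Kif5a had 19 and 3 counts under GSI and 2 and 1 after washout. Kif26b had 14 and 5 counts under GSI and 2 and 4 after washout. In all 3 both washout libraries lay below both GSI libraries in CPM, at few reads close to the limit of detection. Kif19a had 4 and 2 counts under GSI and 0 and 0 after washout. Kif16bos, an antisense transcript, had 8 and 1 counts under GSI and 4 and 1 after washout.

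**Figure D4:**
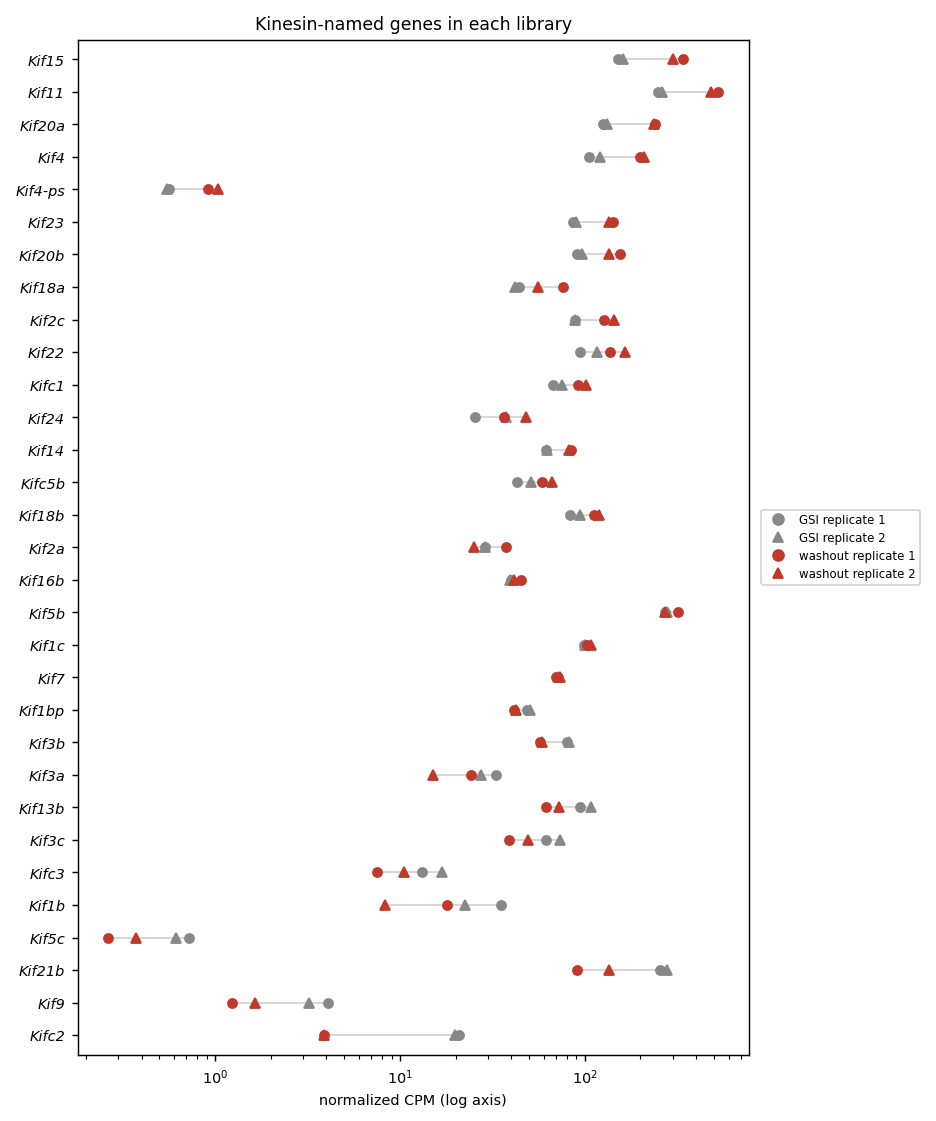
Level of the 31 tested kinesin-named genes in each library as normalized CPM on a log axis, with GSI libraries in grey and washout libraries in red, circles for replicate 1 and triangles for replicate 2. Mitotic kinesins fill the upper 15 rows and have washout to the right except for the overlapping Kif24, while in the lower rows Kif21b, Kifc2 and the Kif3 genes have washout to the left.

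Per length of exon, Ccnb2, Ccna2, Bub3, Cdc20 and Bub1b were the 5 most abundant members in both groups. Here levels are CPM per kilobase of the union of annotated exons. Ccnb2, with 97.0, stood first in GSI and Ccna2, with 135, upon washout, where Ccna2 had 66.8 in GSI. Bub3 had 76.8 in GSI and 122 upon washout. Cdc20 had 67.2 in GSI and 110.0 upon washout. Bub1b had 56.6 in GSI and 118 upon washout. Next came Kif11, the most abundant kinesin, with 53.0 in GSI and 104 upon washout. Other cyclins and checkpoint genes were lower, such as Ccnb1 with 16.8 in GSI and 30.1 upon washout and Bub1 with 21.2 in GSI and 40.5 upon washout. In GSI the CENP-HIKM genes were below the 5 leading genes, with 4.60 for Cenpi, 6.74 for Cenph, 8.67 for Cenpk and 21.8 for Cenpm, while Cenpc1 had 19.7 and Cenpa 30.3. Upon washout the level was 9.71 for Cenpi, 19.8 for Cenph, 18.7 for Cenpk and 55.5 for Cenpm, so that these genes stayed widely apart, and it was 21.2 for Cenpc1. These are values per annotated gene and depend on which exons are used.

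The other genes of mitosis, taken from lists outside the members, moved mostly in the same direction. Of 103 such genes, all tested, 80 were higher (77.7%, against 27.0% of all genes tested) and 2 were lower (1.94%, against 25.4%). Their median log2 fold change was 0.62. Without GSI replicate 1, 56 of them were higher, and under total-count scaling 63. Total-count scaling gave 2315 higher over all 12266 genes tested. Among 23 further kinetochore genes, 20 were higher (median 0.75). Apitd1, the CENP-S gene, had 8.25 and 9.25 CPM under GSI and 25.5 and 27.3 CPM after washout, a rise of 1.60. Lowest on that list was Mad2l1bp, an antagonist of Mad2, with 21.7 and 22.9 CPM under GSI and 14.5 and 15.8 CPM after washout (-0.56, adjusted p = 0.0121), a call that was lost without GSI replicate 1 (0.0518) or GSI replicate 2 (0.0758). In the anaphase-promoting complex and its partners 12 of 18 genes were higher (median 0.44), from Anapc2 (-0.04) to Anapc15 (1.22). Condensin and cohesin genes had a median of 0.55 with 17 of 24 higher (10 without GSI replicate 1), from Nipbl, the cohesin loader, which was lower (-0.48, adjusted p = 0.0153, but 0.0511 to 0.0984 without either GSI library or washout replicate 2), to Cdca5, which protects cohesin (1.17). Of the spindle and cytokinesis proteins 20 of 23 were higher (median 0.61), or 13 without GSI replicate 1, and their values ran from 0.11 (Numa1) to 0.93 (Haus6). Of 15 genes for transcription and entry control in G2/M, 11 were higher (median 0.71). Pkmyt1, a kinase that restrains Cdk1, had 29.1 and 38.0 CPM under GSI and 77.0 and 84.4 CPM after washout (1.27), and Lin37, a subunit of the DREAM complex, had 21.0 and 23.5 CPM under GSI and 17.1 and 17.9 CPM after washout (-0.34, adjusted p = 0.0653).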

How the data were processed

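The authors trimmed the RNA-Seq reads, aligned them to mm9 with HISAT2 2.2.1, reporting a single alignment per read and introns of 30 to 3000 bp, and counted them per gene with summarizeOverlaps. The deposited values are raw counts of reads per gene, without normalization. Strand setting and overlap mode of the counting are not given in the sources used here. The groups were tested with edgeR 4.0.16 under R 4.3.3 (filterByExpr, TMM, quasi-likelihood test on the group, no covariate, Benjamini-Hochberg adjustment over 12266 genes). SE was computed as |log2 fold change| over √F. Positions and exon lengths come from GENCODE vM1 (NCBIM37, the mm9 build), where 80 of 83 members matched, and overlap means shared exon bases. Promoters come from RefSeq. Scripts were tested on simulated data. Alternatives were DESeq2 1.42.0, other scalings and filters, the replicate number as a block, thinning to 13716199 counts, a smooth correction for GC content and length (89.4% of genes tested), and leaving out each library, where the lone library is assumed to vary like the other group. Role groups, lists and members were chosen with earlier results of these data known. Named genes were a fixed set of 28 mitotic members, all members past both thresholds or lower, and the extremes of each role group and list; others were named after their values were seen.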

Additional observations from a re-analysis of the deposited data

How the results depend on the processing

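With 1 library left out, 35 to 46 members were higher and 6 to 8 lower at an adjusted p under 0.05 (47 and 8 as reported), 6 to 15 were higher and 2 to 5 lower past both thresholds (10 and 4), and the median log2 fold change of members was 0.60 to 0.64. Total-count scaling gave 4 members higher past both thresholds and a median of 0.43, a filter of 1 count per gene a median of 0.59, and a filter of 10 counts in every library a median of 0.60. The correction for GC content and length left 2 members lower past both thresholds, with or without the replicate block, and moved Kif7 from -0.00 to 0.40 in both. Cenph, Cenpm, Cenpw and Spc24 stayed higher and Kifc2 lower past both thresholds under every alternative run, and the median of each role group kept its sign. Over all genes, total-count scaling gave 586 higher past both thresholds (950 as reported) and moved the upward share of these calls from 39.8% to 23.0%, and without GSI replicate 1 there were 2202 higher and 2028 lower genes (3315 and 3120). Both groups share replicate numbers 1 and 2, but no label ties same-numbered libraries beyond that number. Deviations of same-numbered libraries correlated at 0.497 over genes tested and at 0.559 over members tested. With 2 pairs, what these libraries share was not tested. With the replicate block, 49 members were higher and 11 lower, and no call was lost. Cenpj and Kif24 were added to the former and Kif1bp, Kif3a and Kif5c to the latter. Calls rose over all genes tested as well, to 4243 higher and 4216 lower (3315 and 3120 as reported). Depth limits the members under 20 counts, which were not tested, and Kif4-ps, Kif5c and Kif9.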
